A study of Homo sapiens with 60 samples.

Results

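The 45 mitosis and spindle genes described here encode proteins that carry a cell through mitosis, from the kinases and cyclins of mitotic entry to the motors of the spindle and the proteins of cytokinesis. They were taken as a list of named genes, not by a threshold on their values, and all 45 were found among the 60675 gene IDs of the count table and passed the filter on low counts. Their expression was measured by RNA sequencing in HT29, an established human colorectal adenocarcinoma line, after 24 h with vehicle or with 70% ethanol extracts of medicinal plants. Vehicle was 0.1% DMSO in the sample labels, with 3 libraries, and the series' design text gives another DMSO share. The extracts came from 6 single herbs, Aconiti Lateralis Radix Preparata, Bupleuri Radix, Cimicifugae Rhizoma, Citri Unshius Pericarpium, Coptidis Rhizoma and Zizyphi Fructus, and from 2 formulas, Banhasasim-tang and Yijung-tang. Most were given at 500 (high), 100 (medium) and 20 µg/mL (low). Coptidis Rhizoma was given at 320 (high), 64 (medium) and 12.8 µg/mL (low), and Bupleuri Radix at 310 (high), 62 (medium) and 12.4 µg/mL (low), in steps of 5-fold from the concentration the design text names as their IC20. Coptidis Rhizoma, Zizyphi Fructus and Yijung-tang had 2 libraries per dose, Banhasasim-tang had 1, and the other 4 extracts had 3. The labels do not say whether libraries of a group came from separate cultures, so p-values measure the spread between these libraries, which may be technical.

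In a dividing cell, cyclin-dependent kinase CDK1 bound to cyclins A and B drives entry into mitosis, and the kinetochores then attach chromosomes to spindle microtubules under the watch of the spindle checkpoint. Once the checkpoint is satisfied, the anaphase promoting complex is released and marks securin and cyclin B for destruction, and kinesins and the midzone proteins complete division. Transcripts of these genes rise late in the cell cycle, in G2 and mitosis, under the MuvB complex with B-MYB and FOXM1, whereas genes of DNA replication rise earlier, at the G1 to S transition, under E2F factors. In resting or arrested cells the DREAM complex, which MuvB forms with the pocket proteins p107 and p130 and with E2F4 or E2F5, holds both groups down.

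The DNA before the start of these genes shows the elements through which that timing is known to act: the cell cycle homology region, or CHR, and CCAAT boxes, which bind NF-Y. Of the 45 genes, 38 had a promoter in the RefSeq table (GRCh38.p14). Both strands of the 250 bases before the start were searched for TTTGAA or TTCGAA as the CHR and for CCAAT, motifs of which none contains another. A CHR match lay in 21 of 38 promoters (55.3%), against 2 of 37 (5.41%) of the S-phase genes used for comparison, 21 of 63 (33.3%) of a list of other mitosis genes and 3983 of 27305 promoters in all (14.6%). CCAAT lay in 30 of 38 (78.9%), against 59.5% of the S-phase promoters, 58.7% of the other mitosis promoters and 33.0% of all. Both motifs together lay in 19 of the 38 promoters, in 25.4% of the other mitosis promoters and in 5.24% of all. With the 50 bases after the start included, 73.7% of the 38 promoters, 55.6% of the other mitosis promoters and 16.6% of all held a CHR match. A match is a description of letters and not a bound site.

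Printed here are 5 of the 6 windows that hold no exonic base of any GENCODE 29 gene. They were taken to show a CHR beside CCAAT boxes (CDK1, KIF11 and MKI67), CCAAT boxes without a CHR match (CENPF), and neither within the window (CDC25C). Each window lies before a single start of its gene, so elements near other starts or after the start were not seen in it. A window without a match, as for CDC25C, therefore does not mean that the gene lacks these elements. Each runs 5′ to 3′ along the gene's strand up to the base before the start, with motif matches on either strand in capitals (TTTGAA or its complement TTCAAA, and CCAAT or its complement ATTGG). The windows are chr10:60778081-60778330 (plus strand) for CDK1, chr10:92592880-92593129 (plus) for KIF11, chr10:128126424-128126673 (minus) for MKI67, chr1:214602945-214603194 (plus) for CENPF and chr5:138338356-138338605 (minus) for CDC25C.
CDK1: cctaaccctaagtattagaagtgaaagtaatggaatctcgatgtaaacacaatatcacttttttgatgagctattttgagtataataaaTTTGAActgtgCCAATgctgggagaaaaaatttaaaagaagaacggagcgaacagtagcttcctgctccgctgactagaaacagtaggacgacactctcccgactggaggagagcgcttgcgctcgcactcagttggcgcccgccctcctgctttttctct
KIF11: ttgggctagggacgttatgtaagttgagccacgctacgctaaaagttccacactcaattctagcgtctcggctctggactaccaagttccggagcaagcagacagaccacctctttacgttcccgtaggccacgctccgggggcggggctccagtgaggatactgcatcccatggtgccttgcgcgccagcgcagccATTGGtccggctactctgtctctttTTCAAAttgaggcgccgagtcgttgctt
MKI67: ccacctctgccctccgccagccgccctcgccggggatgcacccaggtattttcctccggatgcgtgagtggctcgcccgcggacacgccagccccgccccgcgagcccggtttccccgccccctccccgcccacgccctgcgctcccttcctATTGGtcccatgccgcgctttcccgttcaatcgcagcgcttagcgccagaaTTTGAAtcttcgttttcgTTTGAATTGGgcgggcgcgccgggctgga
CENPF: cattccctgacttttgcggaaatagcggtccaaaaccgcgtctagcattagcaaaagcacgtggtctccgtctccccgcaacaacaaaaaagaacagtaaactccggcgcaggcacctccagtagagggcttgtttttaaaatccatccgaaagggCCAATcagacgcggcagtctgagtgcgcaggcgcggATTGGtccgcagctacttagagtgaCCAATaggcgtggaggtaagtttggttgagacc
CDC25C: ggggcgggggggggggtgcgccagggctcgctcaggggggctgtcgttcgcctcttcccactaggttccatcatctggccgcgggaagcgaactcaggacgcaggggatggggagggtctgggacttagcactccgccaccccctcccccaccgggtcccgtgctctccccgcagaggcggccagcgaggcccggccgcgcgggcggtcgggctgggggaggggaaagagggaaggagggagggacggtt
In KIF11 the CHR match began 28 bases before the start and the CCAAT box 53 bases before it. In MKI67 the CHR matches began 47 and 29 bases before the start and the CCAAT boxes 98 and 24. In CDK1 the CHR match lay farther out, at 161 bases, with a CCAAT box at 150. The 3 CCAAT boxes of CENPF began 94, 58 and 33 bases before the start.

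The libraries held 18.1 to 36.7 M counts, median 24.1 M. After a filter on low counts, 16022 genes entered the tests. Levels are CPM, counts scaled to a common total after TMM normalization between libraries, and changes are log2 changes from 1 edgeR quasi-likelihood model over all 60 libraries. A gene passed where its Benjamini-Hochberg adjusted p, over all tested genes, was below 0.05. Zizyphi Fructus medium replicate 3 stood apart: its 10 highest genes took 38.7% of its counts, against 6.23 to 15.9% in the other 59 libraries, and its TMM factor was 0.567. The common dispersion of the model was 0.00613 with it and 0.00212 without it, so that it also widens the errors of other groups, and counts without it are given where they differ by over 1.5 times. All titles, vehicle included, carry the same batch name, BatchD. The libraries were put in sets here by the first part of their sample codes, whose meaning the labels do not give. By these codes vehicle is alone in a set and the doses of an extract are always in the same set. For a contrast with vehicle, treatment and set cannot be told apart. Of 9 intestinal epithelial markers, all were detected in every library, CDX1 only at 0.225 to 1.70 CPM. Their summed level was 8861 to 13934 CPM, against 3.79 to 8.18 CPM for 8 markers of fibroblasts, leukocytes and endothelium. Of these, COL1A2 was at 0 in 55, CD3E in 56, PTPRC in 43, DCN in 39 and VWF in 29 of the 60 libraries. CD14 (1.96 to 4.7 CPM), COL1A1 (0.825 to 3.69 CPM) and PECAM1 (0.15 to 2.5 CPM) had counts in every library.

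The summed level of the 45 genes was 6018, 6268 and 6415 CPM in the 3 vehicle libraries. At the low dose of the 8 extracts it was 5505 to 5823 CPM in 19 libraries (median 5694 CPM). At the high dose of Coptidis Rhizoma it was 4308 and 4426 CPM, below every other library. Zizyphi Fructus medium replicate 3 was above every other library, at 8298 CPM. The 45 S-phase genes differed from them. They summed to 4415 to 4512 CPM in vehicle and to 4227 to 4464 CPM at low dose, and dropped to 1746 and 1788 CPM at the high dose of Coptidis Rhizoma. In bulk RNA, fewer cells in mitosis and less of these transcripts per cell cannot be told apart.

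**Figure D1:**
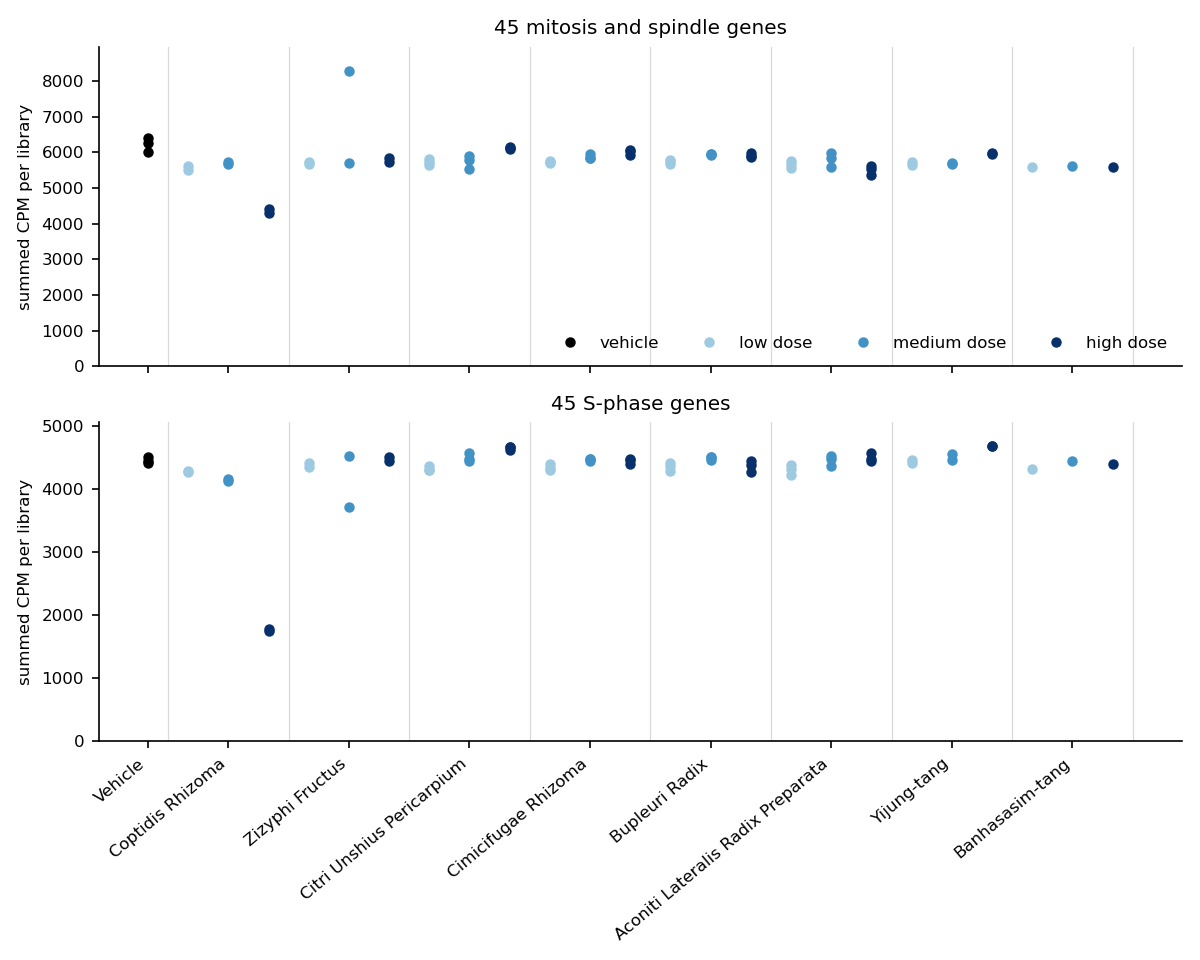
Summed CPM of the 45 mitosis and spindle genes (top) and of 45 S-phase genes (bottom), 1 point per library (vertical axes start at 0), by vehicle and by extract with low, medium and high dose from left to right. The 2 libraries of the high dose of Coptidis Rhizoma sit lowest in both panels, at 4308 and 4426 CPM and at 1746 and 1788 CPM, and the point at 8298 CPM in the top panel is Zizyphi Fructus medium replicate 3.

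At 320 µg/mL of Coptidis Rhizoma, the rhizome of goldthread, most mitosis and spindle genes were lower than at its low dose, by less than the S-phase genes. From low to high dose 32 of the 45 fell, 4 rose and 9 did not pass, beside 28.4% of all tested genes lower and 27.8% higher. The median log2 change was -0.34 over the 45 genes, a ratio of 0.789, and -0.02 over all tested genes. SPC25 was the only member to fall by more than 2-fold. All 45 S-phase genes fell, 32 of them by more than 2-fold, with a median log2 change of -1.29, a ratio of 0.408. No mitosis or spindle gene fell as much as the median S-phase gene, and 30 S-phase genes fell more than SPC25, the deepest fall among the 45. With library totals in place of TMM the median of all genes moved from -0.02 to 0.11, and 22 of the 45 genes fell and 3 rose, with a median of -0.21, beside 18.8% of all genes lower and 31% higher. The S-phase median was then -1.16.

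The 4 members of the chromosomal passenger complex, which corrects faulty attachments at the centromere and later directs cytokinesis, all fell, with a median log2 change of -0.74. BIRC5, which encodes survivin, stood at 87.3 and 87.8 CPM at low dose and 48.6 and 50.7 CPM at high dose. Its log2 change was -0.82 (SE 0.123, edgeR adjusted p = 3.06e-07). CDCA8, which encodes borealin, went from 64.5 and 65.7 CPM to 41.8 and 43.7 CPM, the smallest fall of the 4 at -0.61 (SE 0.085). The high-dose libraries lay below both low-dose libraries for each of them. The share of all tested genes whose libraries separate in this way was not counted, here or for the genes below. INCENP, the scaffold of the complex, fell by 0.80 (SE 0.088), and AURKB, its kinase, by 0.67 (SE 0.102) on the log2 scale.

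All 5 checkpoint genes fell, with a median of -0.44. MAD2L1, whose protein holds back the anaphase promoting complex, fell most, from 110 and 100.3 CPM to 60.6 and 61.3 CPM, a log2 change of -0.79 (SE 0.102, edgeR adjusted p = 1.31e-08). BUB3, which recruits the other checkpoint proteins to kinetochores, fell least, from 182 and 185 CPM to 161 CPM in both high-dose libraries, at -0.18 (SE 0.049, adjusted p = 0.00149). Between them lay the kinases and pseudokinase BUB1B (-0.68), TTK (-0.44) and BUB1 (-0.34). The range within this role thus ran from a ratio of 0.579 to 0.881.

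The 6 kinetochore and centromere genes did not move together: 3 fell, 1 rose and 2 did not pass. SPC25 and NUF2 encode subunits of the same NDC80 complex, which binds spindle microtubules. SPC25 (GENCODE 29, chromosome 2, bases 168834132 to 168913371, minus strand) went from 18.5 and 19.3 CPM at low dose to 8.89 and 9.33 CPM at high dose, a log2 change of -1.05 (SE 0.103, edgeR adjusted p = 1.42e-11). NUF2 went from 21.2 and 19.7 CPM to 18.6 and 19.2 CPM, -0.12 (SE 0.089, adjusted p = 0.279), and NDC80 itself was at -0.15 (adjusted p = 0.057). The kinetochore proteins CENPF and CENPE fell by 0.52 and 0.50. CENPA, the centromeric histone, went from 16.6 and 18.5 CPM to 23.5 and 24.5 CPM, a rise of 0.45 (SE 0.18, adjusted p = 0.0325), which was lost when any of the 4 libraries was left out. Against vehicle, at 20.8, 21.2 and 22.4 CPM, CENPA did not pass.

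Of the 9 genes of mitotic entry, 6 fell and 2 rose. CCNA2, cyclin A2, went from 132 and 136 CPM to 87.0 and 87.1 CPM, -0.62 (SE 0.08, edgeR adjusted p = 1.26e-08). Its partner CDK1 fell by 0.41 (SE 0.101), and the B cyclins fell less, CCNB1 by 0.30 and CCNB2 by 0.25, and both calls were lost without high replicate 2 (-0.26 and -0.20) or low replicate 2 (-0.27 and -0.19). PLK1, a kinase that acts throughout mitosis, stood at 136 and 128 CPM at low dose and 115 and 125 CPM at high dose, -0.14 (SE 0.085, adjusted p = 0.18). The 2 phosphatases that activate CDK1 went opposite ways. CDC25C fell by 0.40 (SE 0.12), a call lost without low replicate 3 (-0.31), whereas CDC25B (chromosome 20, bases 3786772 to 3806121, plus strand) rose from 128 and 125 CPM to 189 and 181 CPM. That rise of 0.55 (SE 0.041, adjusted p = 5.81e-15) was the largest among the 45 genes, and both libraries lay above the 3 vehicle libraries at 135, 135 and 136 CPM. NEK2, a kinase of centrosome separation, rose from 30.8 and 32.5 CPM to 34.4 and 39.6 CPM, 0.23 (SE 0.062, adjusted p = 0.002). The vehicle libraries, at 33.6 to 35.7 CPM, overlapped those high-dose values. Without high replicate 3 the change of NEK2 was 0.14 and did not pass.

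Among the 3 genes of the anaphase promoting complex and its target, only PTTG1, securin, fell: from 91.8 and 82.5 CPM to 56.5 and 56.6 CPM, -0.62 (SE 0.083, edgeR adjusted p = 2.91e-08). UBE2C, the ubiquitin-conjugating enzyme of the complex, stood at 97.9 and 88.5 CPM and then 81.7 and 88.8 CPM, -0.13 (SE 0.094, adjusted p = 0.251). Its activator CDC20 was at -0.20 (SE 0.089, adjusted p = 0.0547). The UBE2C libraries of both doses overlapped, while those of PTTG1 lay far apart.

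Of 7 kinesins 5 fell. KIF11, the motor that pushes spindle poles apart, went from 110 and 105 CPM to 68.6 and 69.2 CPM, -0.64 (SE 0.074, edgeR adjusted p = 1.05e-09). KIF20A, KIF4A and KIF14, motors of the midzone and of cytokinesis, fell by 0.52, 0.51 and 0.44, and KIF23 by 0.29, a call lost without low replicate 3 (-0.20). KIF18A, which limits chromosome movement at the metaphase plate, stood at 32.3 and 29.6 CPM and then 30.3 and 28.2 CPM, -0.08 (SE 0.072, adjusted p = 0.349). KIF2C, a microtubule depolymerase, was at -0.14 (adjusted p = 0.0792).

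Of 8 genes of spindle proteins and cytokinesis 5 fell, 1 rose and 2 did not pass. DLGAP5, which stabilises spindle fibres, fell most, from 54.0 and 47.3 CPM to 33.5 and 31.9 CPM, -0.63 (SE 0.069, edgeR adjusted p = 2.19e-10). PRC1, which bundles midzone microtubules, passed with the smallest fall, from 208 and 211 CPM to 183 and 192 CPM, -0.16 (SE 0.053, adjusted p = 0.0106), a call lost without high replicate 2 (-0.11) or low replicate 3 (-0.14). ANLN, TPX2 and ECT2 fell by 0.54, 0.48 and 0.31 (the call of TPX2 was lost without high replicate 2, at -0.40), and ASPM and NUSAP1, at -0.21 and -0.19, did not pass. In GENCODE 29, NUSAP1 and PRC1 share 62.2% and 57.6% of their exonic bases with another gene on the same strand, so their counts are uncertain. HMMR (chromosome 5, bases 163460203 to 163491945, plus strand), which encodes a spindle-associated protein, rose from 56.6 and 60.1 CPM to 72.0 and 71.6 CPM, 0.30 (SE 0.063, adjusted p = 1e-04). At the medium dose HMMR already stood at 65.7 and 69.0 CPM, and the vehicle libraries at 62.7 to 67.1 CPM.

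The proliferation antigen MKI67 went from 542 and 635 CPM to 347 and 355 CPM, -0.75 (SE 0.211, edgeR adjusted p = 0.00253), the widest error of the 45 genes. TOP2A, which untangles sister chromatids, fell from 452 CPM in both low-dose libraries to 388 and 397 CPM, -0.20 (SE 0.042). FOXM1, a transcription factor of this gene group, fell by 0.27 (SE 0.07). Both high-dose libraries lay below every low-dose, medium-dose and vehicle library in MKI67 and TOP2A, and MKI67 at the medium dose, 556 and 565 CPM, lay within its low-dose range.

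**Figure D2:**
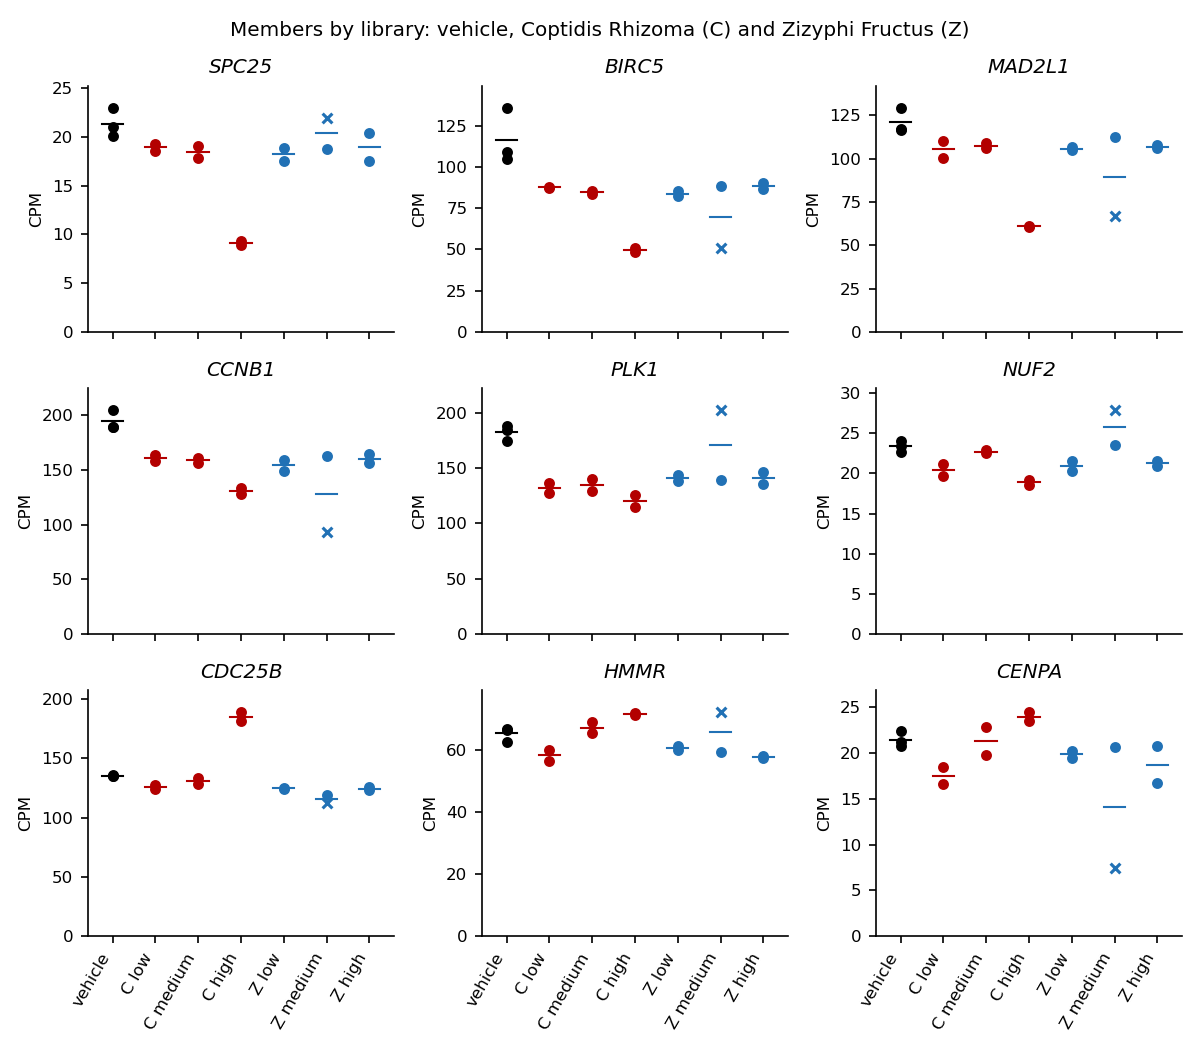
CPM of 9 mitosis and spindle genes in each library of vehicle (black), Coptidis Rhizoma (C, red) and Zizyphi Fructus (Z, blue) by dose. Each panel has its own axis from 0, bars are group means and the cross is Zizyphi Fructus medium replicate 3. SPC25, BIRC5, MAD2L1 and CCNB1 sit lowest at C high apart from the cross, PLK1 and NUF2 differ little between C low and C high, and CDC25B is highest at C high.

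Between the low and the medium dose of Coptidis Rhizoma, 12.8 and 64 µg/mL, none of the 45 genes passed by edgeR, beside 0.374% of all genes that passed lower and 0.974% higher. At an unadjusted p under 0.05, 0 of the 45 were lower and 3 higher, beside 4.01% and 4.93% of all genes at that same threshold. Without Zizyphi Fructus medium replicate 3 the count was 0 lower and 1 higher, beside 1.42% and 2.49% of all genes. The summed level was 5505 and 5625 CPM at low, 5665 and 5729 CPM at medium and 4308 and 4426 CPM at high dose.

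The share of mitochondrial ribosomal RNA in these libraries moved with the dose as well, at 10.1 ± 0.5% (SD, n = 2) at low, 6.35 ± 0.13% (n = 2) at medium and 1.60 ± 0.05% (n = 2) at high dose, against 1.11 ± 0.04% (n = 3) in vehicle. The summed epithelial markers were 10710 and 10757 CPM at low and 8861 and 8880 CPM at high dose. Most of that sum was KRT8 and KRT18, whose group means went from 5354.5 to 4122.6 CPM and from 3372 to 2477 CPM. VIL1 (185 to 87.4 CPM), CDX1 (1.17 to 0.279 CPM) and CDH1 (454 to 445 CPM) were also lower. EPCAM (549 to 597 CPM), KRT20 (248 to 357 CPM), LGALS4 (563 to 775 CPM) and CDX2 (6.74 to 9.43 CPM) were higher. The part of the mitochondrial ribosomal RNA or of these markers in the change of the mitosis genes was not tested.

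**Figure D3:**
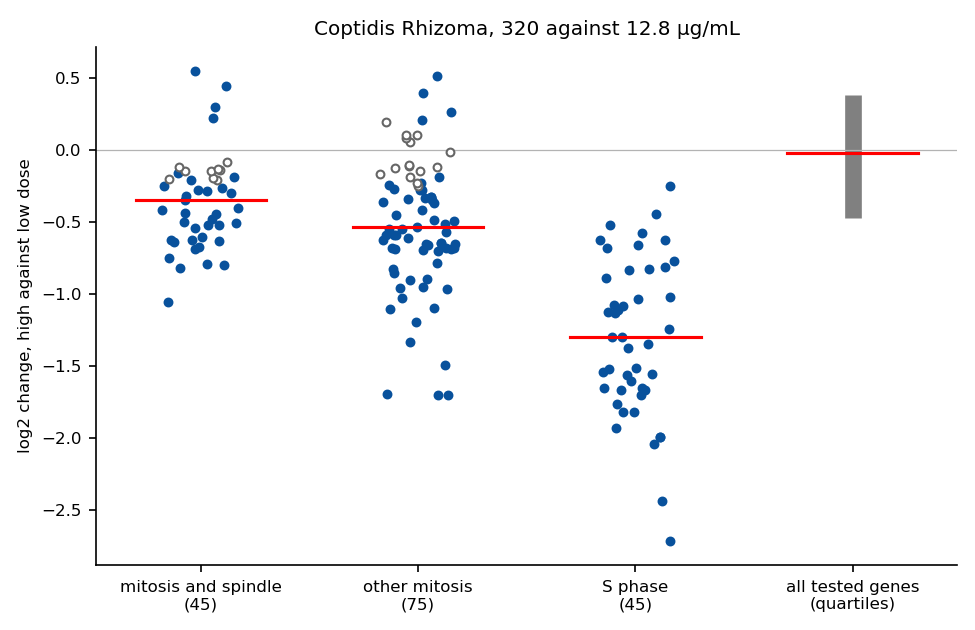
Log2 change between the low and the high dose of Coptidis Rhizoma, 1 point per gene for the 45 mitosis and spindle genes, 75 other mitosis genes and 45 S-phase genes. Filled points passed at an adjusted p below 0.05, red lines are medians (-0.34, -0.53, -1.29 and, for all tested genes, -0.02), and the grey bar spans the quartiles of all tested genes.

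The wider mitotic machinery lay between. Of 75 other mitosis genes, 56 fell, 4 rose and 15 did not pass, with a median of -0.53. The deepest falls among them were CENPI, a centromere protein of the kinetochore, at -1.70 (SE 0.115), CDC25A, the phosphatase that also drives entry into S phase, at -1.70 (SE 0.117), and SPC24, the partner of SPC25, at -1.69 (SE 0.136). Of these 75 genes 8 fell more than SPC25. In the S-phase list the deepest falls were CCNE2, cyclin E2 (-2.72, SE 0.144), ORC1 of the origin recognition complex (-2.44, SE 0.1) and E2F1 (-2.04, SE 0.165), and the smallest was RPA2 at -0.25. A total of 17 mitosis and spindle genes lay above that smallest S-phase change.

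Some regulators of both groups also differed with dose. Of 17 genes of cell cycle control, the DREAM and MuvB complexes among them, 8 fell and 6 rose, beside 28.4% of all tested genes lower and 27.8% higher. MYBL2, which encodes B-MYB, fell from 174 ± 2.8 (n = 2) to 76.6 ± 2.6 CPM (n = 2), -1.19 (SE 0.102), and RBL1, which encodes p107, by 0.80. CDKN1A, the CDK inhibitor p21, rose from 14.6 ± 0.65 to 91.3 ± 0.63 CPM (n = 2 each), 2.65 on the log2 scale (SE 0.087). In vehicle CDKN1A stood at 15.4 ± 0.64 CPM (n = 3). Members with a CHR match in the window before the start had a median change of -0.31 (21 genes) and those without of -0.40 (17 genes), given as a description without a test.

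Against vehicle, 39 of the 45 genes were lower at the high dose of Coptidis Rhizoma and 2 higher, CDC25B (0.45, SE 0.037) and HMMR (0.13, SE 0.057, edgeR adjusted p = 0.04), with a median of -0.53. Of all tested genes 32.0% were lower and 30.9% higher. The rise of HMMR was lost without Vehicle replicate 2 or without either high-dose library. It was also lost with no filter on low counts and with only the compared groups in the fit, and kept its sign in each case. With library totals in place of TMM the calls of BUB3, KIF2C, NDC80 and PRC1 were lost. That of PRC1 was also lost with only the compared groups. The deepest falls were those of BIRC5 and SPC25, at -1.23 each, with INCENP and AURKB at ratios of 0.498 and 0.501. All 45 S-phase genes were lower, with a median of -1.38.

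In the other 7 extracts the median change of the mitosis and spindle genes between doses was close to 0. From low to high dose, medians over the 45 genes lay between -0.02 (Aconiti Lateralis Radix Preparata) and 0.09 (Citri Unshius Pericarpium) in these extracts, and those of the S-phase genes between 0.00 and 0.10. By edgeR none passed in 6 of the 7. At an unadjusted p under 0.05 these 6 had, lower and higher, 0 and 0 (Zizyphi Fructus), 0 and 13 (Citri Unshius Pericarpium), 0 and 3 (Cimicifugae Rhizoma), 3 and 1 (Aconiti Lateralis Radix Preparata), 0 and 5 (Yijung-tang) and 0 and 2 (Banhasasim-tang). DESeq2 called 1 gene higher with Citri Unshius Pericarpium, 2 lower with Aconiti Lateralis Radix Preparata and none in the other 4. In the same order, the shares of all genes at that same unadjusted threshold, lower and higher, were 1.1% and 0.967%, 3.99% and 2.55%, 4.36% and 3.07%, 6.35% and 4.64%, 3.72% and 2.33%, and 4.03% and 4.86%. After adjustment they were 0 and 0, then 0.125% and 0.0187%, 0.437% and 0.437%, 2.23% and 0.474%, 0.119% and 0.0874%, and 0.693% and 1.04%. The high-dose library of Banhasasim-tang had 10.2% mitochondrial ribosomal RNA, against 1.11% at its low dose, and the part of this in its contrasts, those with vehicle included, was not tested.

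With Bupleuri Radix 1 of the 45 genes passed, CDC25B. It stood at 120, 123 and 123 CPM at 12.4 µg/mL and at 132, 135 and 136 CPM at 310 µg/mL, all high-dose libraries above all low-dose ones, a change of 0.14 (SE 0.034, edgeR adjusted p = 0.00344). The call was lost with library totals in place of TMM (0.08), where KIF20A passed in its place at -0.18, and with no filter on low counts (0.14). At this dose step 6.59% of all genes were lower and 6.34% higher. The medium-dose libraries, at 117, 124 and 116 CPM, did not share the rise, and the high-dose libraries stood near those of vehicle, at 135, 135 and 136 CPM.

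Leaving out Zizyphi Fructus medium replicate 3 raised the counts in 4 of these extracts. With Bupleuri Radix 7 genes then rose, beside 10.5% of all genes lower and 12.2% higher: CDC25B, CDC20 (0.17), PLK1 (0.16), CCNB1 (0.14), BUB1B (0.12), BUB1 (0.11) and BUB3 (0.09). With Citri Unshius Pericarpium 4 rose, NUF2 (0.29), NEK2 (0.18), CCNA2 (0.14) and TPX2 (0.14), beside 1.12% of all genes lower and 0.294% higher. With Cimicifugae Rhizoma PLK1 rose by 0.17, beside 1.14% of all genes lower and 1.19% higher. With Aconiti Lateralis Radix Preparata KIF4A and TOP2A fell by 0.14 and 0.11 and MAD2L1 rose by 0.14, beside 4.57% of all genes lower and 1.64% higher.

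**Figure D4:**
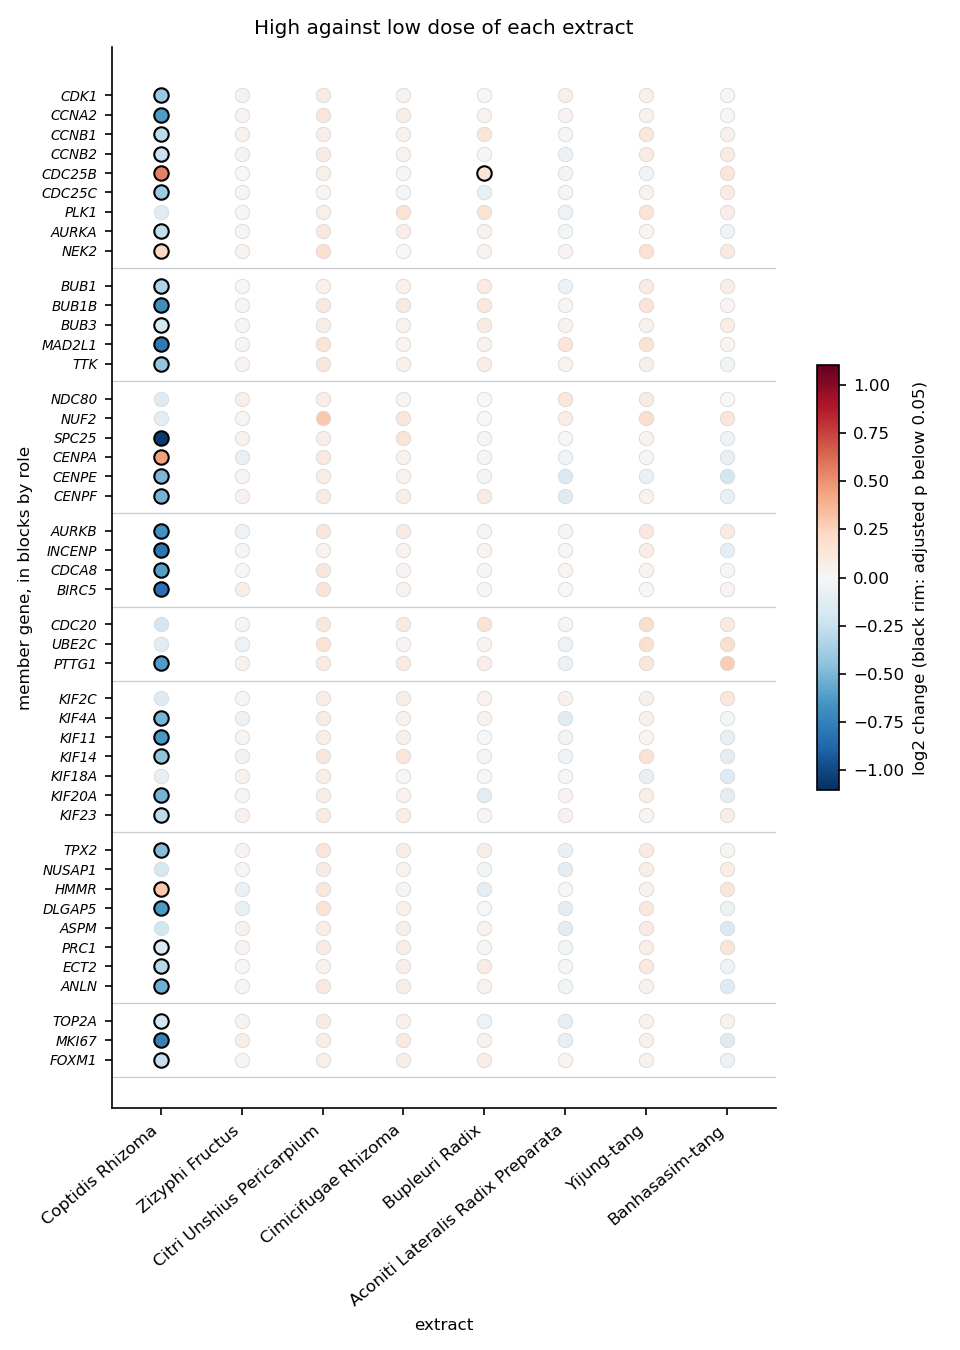
Log2 change from low to high dose for each of the 45 genes (rows, in blocks by role) in each of the 8 extracts (columns), in colour from blue (lower) to red (higher), with a black rim where the adjusted p was below 0.05. The column of Coptidis Rhizoma holds 36 rims, that of Bupleuri Radix 1, at CDC25B, and the other columns none.

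Zizyphi Fructus has to be read by library. At its medium dose replicate 2 had MKI67 at 622 CPM and replicate 3 at 1998 CPM, against 617 and 605 CPM at low dose. From low to medium dose 15 of the 45 genes were higher and 4 lower in the model, led by MKI67 (2.14-fold, SE of the log2 change 0.211), TPX2 (0.75) and ANLN (0.67), beside 18.7% of all genes higher and 12.8% lower. The 4 lower genes were CDC20 (-0.33), CCNB1 (-0.26), BUB3 (-0.13) and CDC25B (-0.11). In replicate 3 CCNB1 was at 93.5 and CENPA at 7.46 CPM, where replicate 2 had 163 and 20.7 CPM. Without that library none of the 45 genes and none of all tested genes passed, and the median log2 change of the 45 was -0.01, so these counts rest on it.

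At low dose the median of the 45 genes was below vehicle with all 8 extracts. In the 8 comparisons, which share the 3 vehicle libraries, 9 to 21 of the 45 genes were lower and 0 higher, with medians of -0.19 to -0.14. Beside them 1.19 to 6.26% of all genes were lower and 2.03 to 8.49% higher, and the S-phase medians were -0.05 to 0.01. The 75 other mitosis genes had medians of -0.10 to -0.04, nearer to 0 than the 45 genes. Of these 75, 11 to 16 (14.7 to 21.3%) were lower and 0 to 5 higher. With Coptidis Rhizoma 14 were lower (all genes 2.29% lower and 3.83% higher), with Zizyphi Fructus 9 (2.3% and 3.74%), with Citri Unshius Pericarpium 17 (5.99% and 8.14%) and with Cimicifugae Rhizoma 18 (5.58% and 7.98%). With Bupleuri Radix 18 were lower (all genes 5.99% lower and 8.49% higher), with Aconiti Lateralis Radix Preparata 21 (6.26% and 8.22%), with Yijung-tang 15 (3.34% and 4.27%) and with Banhasasim-tang 10 (1.19% and 2.03%). BIRC5, for example, stood at 105, 109 and 135 CPM in vehicle and at 81.9 to 93.2 CPM (median 86.3 CPM) in the 19 low-dose libraries, with log2 changes of -0.48 to -0.41. CCNB1 stood at 189, 189 and 204 CPM in vehicle and at 146 to 163 CPM at low dose, and PLK1 at 174 to 188 CPM and 128 to 157 CPM. CDCA8 stood at 79.1 to 86.8 CPM and 61.7 to 69.2 CPM. For these 4 genes the vehicle and low-dose libraries did not overlap, whereas those of KIF11 did (101 to 111 CPM and 105 to 119 CPM). These genes are examples only. AURKA (164 to 171 CPM and 134 to 152 CPM) and CDC20 (164 to 177 CPM and 130 to 146 CPM) did not overlap either, whereas MKI67 (562 to 743 CPM and 542 to 695 CPM) did. Genes without overlap were not counted among the 45 or among all tested genes.

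The summed epithelial markers differed the same way, at 11876 to 13934 CPM in vehicle and 10523 to 11299 CPM in the 19 low-dose libraries, with no overlap. Most of that sum was KRT8 and KRT18. By group means KRT8 was at 6864 CPM in vehicle and 5288 to 5769 CPM at low dose, and KRT18 at 3844 and 3372 to 3470 CPM. EPCAM, KRT20 and LGALS4 were also lower at low dose. CDH1 (440 CPM in vehicle, 454 to 482 CPM) and VIL1 (180 and 182 to 191 CPM) were higher, and CDX1 and CDX2 went both ways. The part of these markers in the difference of the mitosis genes was not tested.

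The medians of that difference varied less than the counts. Without Vehicle replicate 1, in which BIRC5, AURKB and PTTG1 were highest and MKI67 lowest of the 3, the counts of lower genes were 3 to 12 and the medians -0.20 to -0.14, beside 0.231 to 1.19% of all genes lower and 0.281 to 1.7% higher. Without Zizyphi Fructus medium replicate 3 they were 21 to 26 lower, with 0 or 1 higher, beside 7.97 to 14.8% of all genes lower and 8.88 to 16.2% higher. Without both libraries they were 21 to 28, with medians of -0.19 to -0.14, beside 3.31 to 7.58% of all genes lower. With library totals in place of TMM they were 1 to 8, with medians of -0.24 to -0.10, beside 0.119 to 2.43% of all genes lower and 0.481 to 8.27% higher. Since vehicle is a set of its own, the extracts and the set cannot be told apart as the source of this difference.

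**Figure D5:**
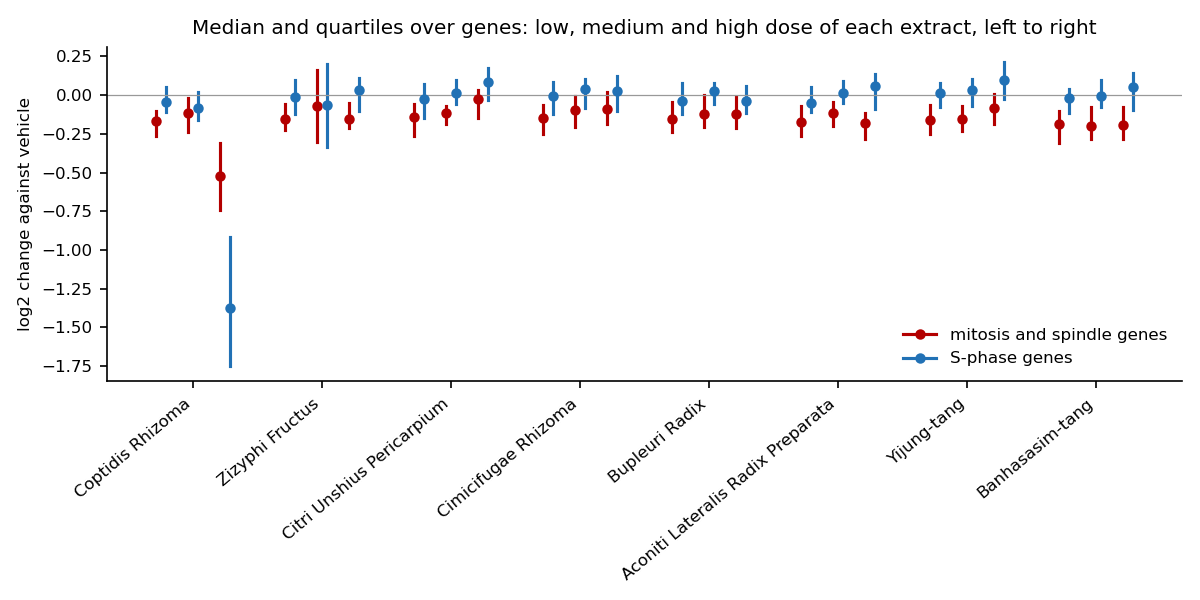
Median log2 change against vehicle, with quartiles as vertical lines, over the 45 mitosis and spindle genes (red) and 45 S-phase genes (blue), at low, medium and high dose of each extract from left to right. At low dose the red medians lie at -0.19 to -0.14 and the blue ones at -0.05 to 0.01, and at the high dose of Coptidis Rhizoma the order turns, with -0.53 in red and -1.38 in blue. The wide quartiles at the medium dose of Zizyphi Fructus come with the library that stands apart.

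At high dose the 7 extracts other than Coptidis Rhizoma also lay mostly below vehicle. With Zizyphi Fructus 12 genes were lower and 0 higher (all genes 2.53% and 4.38%), with Citri Unshius Pericarpium 7 and 2 (5.6% and 7.61%), with Cimicifugae Rhizoma 12 and 1 (7.7% and 10.3%) and with Bupleuri Radix 19 and 1 (12.7% and 14.3%). With Aconiti Lateralis Radix Preparata 20 were lower and 0 higher (all genes 7.96% and 9.35%), with Yijung-tang 9 and 0 (2.98% and 4.66%) and with Banhasasim-tang 8 and 0 (2.67% and 4.94%). The genes against the majority were KIF11 with Citri Unshius Pericarpium (0.22) and Cimicifugae Rhizoma (0.20), and TTK with Citri Unshius Pericarpium and Bupleuri Radix (0.17 each). KIF11 stood at 101, 105 and 111 CPM in vehicle and at 119, 127 and 122 CPM with Citri Unshius Pericarpium, and at 120, 122 and 121 CPM with Cimicifugae Rhizoma. TTK stood at 43.7 to 48.1 CPM in vehicle, at 48.3, 53.3 and 52.4 CPM with Citri Unshius Pericarpium and at 50.8, 53.7 and 49.0 CPM with Bupleuri Radix. These counts moved with the libraries kept, and the shares of all genes moved with them. Without Vehicle replicate 1 no gene passed with Citri Unshius Pericarpium, 5 did with Cimicifugae Rhizoma and Yijung-tang, 4 with Zizyphi Fructus and 12 with Bupleuri Radix, beside 0.443 to 7.3% of all genes lower and 0.868 to 9.01% higher in these 5 comparisons. Without Zizyphi Fructus medium replicate 3 the counts, lower and higher together, were 20 with Citri Unshius Pericarpium (all genes 14.6% lower and 14.5% higher), 24 with Cimicifugae Rhizoma (15.4% and 17.5%), 17 with Yijung-tang (10.7% and 11.3%), 22 with Zizyphi Fructus (10.2% and 10.8%) and 21 with Banhasasim-tang (8.53% and 10.4%). Single high-dose libraries also moved them: 0 genes passed without Zizyphi Fructus replicate 3 and 3 without replicate 2, 0 without Yijung-tang replicate 2 and 2 without replicate 1, and 1 without Citri Unshius Pericarpium replicate 2 and 2 without replicate 3. They were 7 without Cimicifugae Rhizoma replicate 3, and 12 and 13 without Bupleuri Radix replicates 1 and 2. Beside these counts 0.187 to 9.09% of all genes were lower and 0.381 to 11.4% higher.

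Extracts of the same set can be compared without vehicle. At high dose, 36 of the 45 genes were lower and 3 higher with Coptidis Rhizoma than with Zizyphi Fructus, beside 28.8% and 28.0% of all genes. The 2 doses differed, at 320 and 500 µg/mL. The difference between the low-to-high changes of the 2 extracts, tested as an interaction, was below 0 for 31 genes and above 0 for 2, CDC25B (0.56) and HMMR (0.37), beside 21.8% and 21.0% of all genes. SPC25 differed most, at -1.11 (SE 0.142, edgeR adjusted p = 2.11e-08), and BIRC5 by -0.90.

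With Bupleuri Radix against Aconiti Lateralis Radix Preparata at high dose, 310 and 500 µg/mL, 7 genes were higher and none lower, beside 10.2% and 10.9% of all genes. They were PLK1 (0.25), CDC20 (0.22), BUB1 (0.19), DLGAP5 (0.19), CDC25B (0.19), KIF4A (0.15) and BUB1B (0.11). CDC25B, for example, stood at 132, 135 and 136 CPM with Bupleuri Radix and at 118, 117 and 118 CPM with Aconiti Lateralis Radix Preparata. Without Zizyphi Fructus medium replicate 3 the count was 15 higher, beside 17.4% of all genes higher and 15.5% lower. As a difference between low-to-high changes CDC25B alone passed, at 0.16 (SE 0.048, edgeR adjusted p = 0.0229), beside 4.59% of all genes higher, and 7 genes did without that library, beside 9.77%. At high dose by edgeR none of the 45 genes passed between Citri Unshius Pericarpium and Cimicifugae Rhizoma, or between Yijung-tang and Banhasasim-tang, in the level or in the difference of changes. At an unadjusted p under 0.05 the levels differed for 2 and 4 genes, beside 3.62% and 5.41% of all genes lower and 2.83% and 3.69% higher at that same threshold. The changes differed for 1 and 2 genes, beside 2.15% and 3.05% of all genes lower and 1.55% and 1.97% higher. After adjustment 0.73% and 1.1% of all genes were lower and 0.175% and 0.468% higher in level.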

How the data were processed

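The deposited table held expected counts per gene, which the authors made with RSEM 1.3.3 after FastQC 0.11.9, Trim Galore 0.6.5 and STAR 2.7.3a on GRCh38, per the submitters' processing notes. The annotation and the strand setting of the counting are not given in the sources used here. Of 270 value columns, 60 matched the labels and 210 were not used. Expected counts were rounded to whole numbers, which changed library totals by at most 0.000222%. The 16022 genes that reached 0.5 CPM in 3 or more libraries were scaled by TMM and fitted in edgeR 4.0.16 (R 4.3.3) with a quasi-likelihood model of 25 groups and 35 residual degrees of freedom. All adjusted p-values are from edgeR with Benjamini-Hochberg adjustment unless DESeq2 1.42.0 is named. A standard error is the log2 change divided by the square root of F. Banhasasim-tang, with 1 library per dose, is assumed to vary like the other groups. A count of 3 corresponds to 0.0817 to 0.166 CPM, and this covers counting error only. The member genes and the comparison lists were chosen with earlier results of these data known. The genes named with values per library were, for each role, those with the largest and the smallest change among members at the high against the low dose of Coptidis Rhizoma, and all that rose there. Code was tested on simulated data. Alternatives covered size factors, filters, samples in the fit, the replicate block and DESeq2. Motifs were searched in RefSeq promoters (GRCh38.p14), and coordinates are from GENCODE 29 (GRCh38).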

Additional observations from a re-analysis of the deposited data

Results flagged for a closer look

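The low-to-high change differed between extracts of the same set in 2 pairs, each by a test of the difference itself in the edgeR model. Between Coptidis Rhizoma and Zizyphi Fructus the difference was below 0 for 31 of the 45 mitosis and spindle genes, led by SPC25 at -1.111 (log2). It was above 0 for 2, led by CDC25B at 0.559. Beside these counts 21.8% of all tested genes were lower and 21.0% higher. Between Bupleuri Radix and Aconiti Lateralis Radix Preparata the difference was above 0 for 1 gene, CDC25B at 0.164, beside 4.59% of all genes higher. No group held 4 or more libraries, the largest holding 3, so single libraries were not tested as outliers within groups.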

How the results depend on the processing

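The 36 calls among the 45 genes at the high against the low dose of Coptidis Rhizoma all passed again with DESeq2 size factors, the DESeq2 test (37 calls), a filter at 1 CPM, only the compared groups (41), the replicate block (36) and without Zizyphi Fructus medium replicate 3 (41). Leaving out single libraries gave 31 to 34 calls, medians of -0.355 to -0.307 for the 45 genes and S-phase medians of -1.344 to -1.274. With library totals in place of TMM 25 passed, with a median of -0.211, and the S-phase median was -1.16. The calls lost there were AURKA, BUB3, CCNB1, CCNB2, CDC25C, CDK1, CENPA, FOXM1, KIF23, PRC1 and TOP2A. Against vehicle the count was 40 to 42 without single libraries. The cause of the shifts below was not tested. Counts in this section stand without the share of all tested genes, which also moved with several of these settings. A larger or smaller count is therefore not a result about the 45 genes alone. For the contrasts discussed in the Results, these shares are given there.

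Library totals turned the median of the 45 genes to -0.021 with Bupleuri Radix and the S-phase median to -0.063 with Banhasasim-tang (high against low dose). High against vehicle they gave 4 calls with Aconiti Lateralis Radix Preparata, 5 with Banhasasim-tang and with Bupleuri Radix, 3 with Cimicifugae Rhizoma, 2 with Citri Unshius Pericarpium and with Zizyphi Fructus and 1 with Yijung-tang. Low against vehicle they gave 8 with Coptidis Rhizoma, 5 with Aconiti Lateralis Radix Preparata, 4 with Yijung-tang, 1 with Zizyphi Fructus and 3 with each of the other 4. For S-phase genes they gave 1 call with Aconiti Lateralis Radix Preparata.

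Without Zizyphi Fructus medium replicate 3, high against low dose gave 3 calls with Aconiti Lateralis Radix Preparata, 7 with Bupleuri Radix, 1 with Cimicifugae Rhizoma and 4 with Citri Unshius Pericarpium, and S-phase calls of 8, 7, 3, 1 and 1 with Aconiti Lateralis Radix Preparata, Bupleuri Radix, Citri Unshius Pericarpium, Banhasasim-tang and Yijung-tang. High against vehicle it gave 21 (Banhasasim-tang), 24 (Cimicifugae Rhizoma), 20 (Citri Unshius Pericarpium), 17 (Yijung-tang) and 22 (Zizyphi Fructus). The following were chosen after seeing the data. Low against vehicle gave 25 (Coptidis Rhizoma), 24 (Zizyphi Fructus), 23 (Yijung-tang) and 21 (Banhasasim-tang). Medium against low dose gave 1 (Coptidis Rhizoma) and 0 (Zizyphi Fructus). At high dose Bupleuri Radix against Aconiti Lateralis Radix Preparata gave 15 in level and 7 in the difference of changes, Citri Unshius Pericarpium against Cimicifugae Rhizoma 1 and Yijung-tang against Banhasasim-tang 2. Without Vehicle replicate 1 as well, high against vehicle gave 20 (Zizyphi Fructus), 33 (Aconiti Lateralis Radix Preparata) and 23 (Banhasasim-tang), and low against vehicle 26 (Coptidis Rhizoma), 24 (Zizyphi Fructus), 25 (Citri Unshius Pericarpium), 25 (Bupleuri Radix), 28 (Aconiti Lateralis Radix Preparata), 23 (Yijung-tang) and 21 (Banhasasim-tang).

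Only the compared groups gave, high against low dose, 3 calls with Aconiti Lateralis Radix Preparata, 8 with Bupleuri Radix and 2 with Yijung-tang, with 7, 6 and 2 S-phase calls. High against vehicle this gave 8 with Cimicifugae Rhizoma, 2 with Citri Unshius Pericarpium and 0 with Banhasasim-tang, Yijung-tang and Zizyphi Fructus. Without a filter BUB3, NEK2 and PRC1 lost their calls at high against low dose of Coptidis Rhizoma, and the count was 0 with Bupleuri Radix (S-phase 1), 0 S-phase calls with Aconiti Lateralis Radix Preparata, and 7 with Zizyphi Fructus against vehicle. With Bupleuri Radix the filter at 1 CPM and DESeq2 size factors gave 2 each and the DESeq2 test 3. That test gave 2 with Aconiti Lateralis Radix Preparata and 1 with Citri Unshius Pericarpium, with 1 S-phase call.

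Without single libraries, calls against vehicle ranged at high dose from 12 to 18 (Bupleuri Radix), 5 to 16 (Cimicifugae Rhizoma), 0 to 9 (Citri Unshius Pericarpium), 0 to 8 (Yijung-tang) and 0 to 11 (Zizyphi Fructus). At low dose, where only the 3 vehicle libraries were left out in turn, they ranged from 12 to 20 (Aconiti Lateralis Radix Preparata), 3 to 14 (Banhasasim-tang), 10 to 17 (Bupleuri Radix and Cimicifugae Rhizoma), 10 to 16 (Citri Unshius Pericarpium), 8 to 12 (Coptidis Rhizoma), 9 to 14 (Yijung-tang) and 3 to 13 (Zizyphi Fructus). S-phase calls with Aconiti Lateralis Radix Preparata were 1 to 4.

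A set was counted as paired by replicate number only if every same-numbered pair correlated at over 0.1, and no set met this. This strict criterion does not exclude pairing where only part of the pairs pass, and the main model holds no block. Deviations from group means of same-numbered libraries correlated at -0.0338 to 0.0603 in the set of Coptidis Rhizoma and Zizyphi Fructus. With 2 libraries per group, differently numbered pairs there mirror these values, at -0.0603 to 0.0338. In the set with Bupleuri Radix 2 of 45 same-numbered pairs were over 0.1. In the set of Citri Unshius Pericarpium and Cimicifugae Rhizoma 17 of 45 pairs were over 0.1 (median 0.0812), against 0 of 90 differently numbered pairs (median -0.0395). For high against low dose the replicate block was the replicate number within a set. It gave 36 calls with Coptidis Rhizoma, 2 with Bupleuri Radix and 0 with Citri Unshius Pericarpium and Cimicifugae Rhizoma. For high dose against vehicle the block was the replicate number alone, shared by all sets. The labels do not say that equal numbers link vehicle to the other sets. That block gave 10 calls with Citri Unshius Pericarpium and 14 with Cimicifugae Rhizoma.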
